A study of Mus musculus with 6 samples.

Results

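Mitochondria make few of their own proteins and take in the rest through translocases of the outer and inner membranes, the TOM and TIM complexes. Arriving precursors are pulled in by a matrix chaperone, trimmed by peptidases and folded by chaperonins, and proteases of the matrix and inner membrane remove what is damaged or in excess. Brown adipose tissue, which makes heat in its mitochondria, is dense in this machinery. The genes described here are 37 of the 12393 genes measured: all whose symbol starts with Timm or Tomm and that have a probe set naming no other gene, with Lonp1, Spg7, Clpp, Clpx, Hspd1, Hspe1, Hspa9, Metap1d, Afg3l2, Yme1l1, Phb2, Pmpca, Pmpcb, Htra2 and Trap1. They are covered by 73 probe sets, a probe set being the group of short array probes that read a transcript. Phb, Tomm5 and Tomm6 have only probe sets that also name another gene, and they were left out. Membership follows from gene names. The rule itself uses no measured value, but the genes named in it were chosen with earlier results of these data known.

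The tissue came from mice of 3.5 months, of mixed C57BL6 and 129 background, all of which had been kept for 3 months on high fat food. Controls were YY1flox/flox, with both Yy1 alleles floxed, and gave 3 arrays. The 3 arrays of the YY1bKO group were from YY1flox/flox mice with Ucp1Cre, so that recombination depended on the promoter of Ucp1, a gene of brown adipocytes, and cells of other types in the depot were not targeted. Both groups thus carried the floxed alleles, and no group had Cre alone. Values are log2 intensities of the deposited array table, and each gene is represented by its brightest probe set unless stated otherwise.

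Yy1, which encodes the targeted transcription factor Yin Yang 1, read 9.90, 9.62 and 9.95 in the control arrays and 8.38, 8.41 and 8.38 in the YY1bKO arrays (limma adjusted p = 0.000854), so the labels and the transcript matched. No source used here tells where its probes lie relative to the floxed part. The brown adipocyte genes Ucp1, Cidea and Adipoq had control means of 13.92, 13.74 and 13.61, near the top of the intensity range, and none of them was called. Of the 12 measured genes of the brown adipocyte list, 2 were called higher and 0 lower, 8 had a negative and 4 a positive log2 fold change (median -0.13), and the list's mean was 12.28 ± 0.13 in control and 12.29 ± 0.06 in YY1bKO arrays (SD, n = 3). Pearson's r across genes was 0.9782 to 0.9956 among control arrays, 0.9958 to 0.9961 among YY1bKO arrays and 0.9757 to 0.9851 between groups. The lowest value among controls thus lay below the highest between groups. Markers of skeletal muscle varied among controls: the log2 of their summed intensity was 15.28 to 17.73 in control arrays, the highest being control replicate 2, and 16.38 to 16.81 in YY1bKO arrays, and 2 of 18 were called higher. Endothelial markers were lower in YY1bKO tissue, with 5 of 10 called lower and 0 higher and a log2 summed intensity of 12.09 to 12.40 in control and 11.57 to 11.70 in YY1bKO arrays (two-sided exact permutation p = 0.1, which is the floor with 3 arrays a group). Lymphocyte markers were at 8.42 to 8.59 and 8.67 to 8.84, with 1 of 10 called higher and all 10 dim. Smooth muscle, pericyte and Schwann cell markers, taken as 1 list, were at 12.94 to 13.23 and 12.72 to 12.85, with 2 of 8 called lower. Of the 8, 6 had a positive log2 fold change (median 0.27 over the 8). The mean log2 intensity of the list overlapped between groups (8.36 ± 0.24 in control, 8.45 ± 0.13 in YY1bKO, SD, n = 3). Macrophage markers overlapped between groups. No marker was listed at 0. The part of these markers in the results below was not tested. In whole tissue, fewer cells of a type and less RNA per cell cannot be told apart.

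Promoter sequence is shown first because Yy1 encodes a DNA-binding factor. RefSeq windows of GRCm38.p6, from 250 bases before to 50 after a transcript start, matched 32 of the 37 genes with 35 windows, and Afg3l2, Hspa9, Htra2, Tomm40l and Tomm7 were not matched. The letters AANATGGC followed directly by GG, a long form of the Yin Yang 1 motif, were searched on both strands. They occurred in Metap1d, Timm44 and Timm50, on the strand of transcription and within the first bases after the start, and all 3 genes were called lower in YY1bKO tissue. The stretches below are 30 bases each, 5′ to 3′ on the transcribed strand, with the motif in capitals; they lie at chr2:71453346-71453375 on the plus strand, chr8:4275871-4275900 on the minus strand and chr7:28312016-28312045 on the minus strand. The first motif base is base 19, 16 and 12 of the transcript, counting the start as 1.
Metap1d: gaccggagccAACATGGCGGcgcccatcgg
Timm44: gggctcttccAACATGGCGGcggcagctct
Timm50: gcgtcagcgcAAGATGGCGGcctcggcggc

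The motif was present in 3 of 35 windows here and in 446 of 32851 windows of the whole table, or 1.36%. Among the 6 matched genes that were called lower it was found in 3, among the 4 called higher in 0 and among the 22 not called in 0. Over all 9882 tested genes with a window, 289 held it, of which 61 (21.1%) were called lower and 22 (7.61%) higher, against 8.25% and 10.4% of all genes with a window. The median log2 fold change of those 289 genes was -0.08, against 0.04. The shorter form AANATGGC, which overlaps the long form wherever that occurs, added only Phb2, in which it lies at bases -164 and -141 and whose level was not called. The shorter form was present in 4 of 35 windows here and in 6.05% of all windows. It was in 4 of 32 genes here and in 845 of the 9882 tested genes with a window. A match to these letters is a description of sequence and shows no binding.

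Letters of 2 other factors of mitochondrial genes were searched in the same windows. CCGGAAG, the motif of GABP, occurred on either strand in 18 of 35 windows, against 8.86% of all windows. It was in 17 of 32 genes here, against 1616 of the 9882 tested genes with a window. Of these 17 genes, Pmpca was called lower, Tomm22 and Tomm34 were called higher and 14 were not called. Over all 1616 tested genes with these letters, 6.13% were called lower and 18.4% higher, against the 8.25% and 10.4% above. The NRF1 motif, GCGCA, any base and then GCGC, was in 4 of 35 windows, against 4.60% of all windows. Against 925 of the 9882 tested genes with a window, it was in 4 of 32 genes here (Hspd1, Spg7, Timm8b and Tomm20). Of these, Spg7 was called lower and the other 3 were not called, and of all 925 tested genes with the NRF1 letters 8.0% were called lower and 17.3% higher. The stretches below show the GABP letters, in capitals, ahead of genes that were higher, lower and not called: bases -80 to -21 of Tomm22 at chr15:79670788-79670847 and of Pmpca at chr2:26389268-26389327, and bases -90 to -61 of Hspe1 at chr1:55088058-55088087, all on the plus strand. In Tomm22 and Hspe1 a copy on each strand overlaps to form a palindrome.
Tomm22: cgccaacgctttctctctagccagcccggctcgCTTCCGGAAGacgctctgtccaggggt
Pmpca: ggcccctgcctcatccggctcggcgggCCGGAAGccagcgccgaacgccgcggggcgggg
Hspe1: gttctagaacCTTCCGGAAGgccccgcgcg

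Import and quality control genes changed in both directions. Of the 37 genes, 8 were lower and 5 higher in YY1bKO tissue at an adjusted p under 0.05 (limma with Benjamini-Hochberg adjustment over all genes), which is 35.1%. Over all genes tested 18.3% were called, 8.09% lower and 10.2% higher. All but 1 of the 37 genes were above the median intensity of all probe sets. In a fit of only the genes above that median, 13 of 36 were called here, against 30.3% of all 6919 genes. The median log2 fold change of the 37 genes was -0.07, against 0.04 for all genes, and the median of its absolute size was 0.22, against 0.18. In 22 of the 37 genes, or 59.5%, the 3 YY1bKO arrays were all above or all below the 3 controls, which held for 38.5% of all genes. By the RefSeq annotation, Tomm40l and Timm17a lie on chromosome 1, Metap1d, Pmpca and Tomm34 on 2, Htra2 on 6, Timm50 on 7, Spg7 and Timm44 on 8, Timm9 on 12, Tomm22 on 15, Lonp1 on 17 and Hspa9 on 18. Called genes differed by 1.29-fold to 3.59-fold, and 4 of the falls and 1 of the rises reached 1.5-fold. The number called was 4 to 10 lower and 2 to 5 higher when an array was left out, with the fewest without YY1bKO replicate 1 (4 lower, 2 higher) and the most without control replicate 2 (10 lower, 5 higher). With control replicate 1 or 3 left out it was 5 lower with 3 or 4 higher, and with YY1bKO replicate 2 or 3 left out it was 5 or 6 lower with 2 higher. The share of all genes called moved too, from 8.17% without YY1bKO replicate 2 to 25.0% without control replicate 2. All 13 genes also passed in a fit with the skeletal muscle score as a covariate, which called Pmpcb and Timm29 lower as well. Pmpcb and Trap1 were added when arrays were weighted, and Timm23 and Trap1 with an offset of 16 before log2, so that each of these 3 fits had 10 lower and 5 higher genes. Over all genes, 29.5% were called with the muscle score, 25.5% with array weights and 19.6% with the offset.

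**Figure D1:**
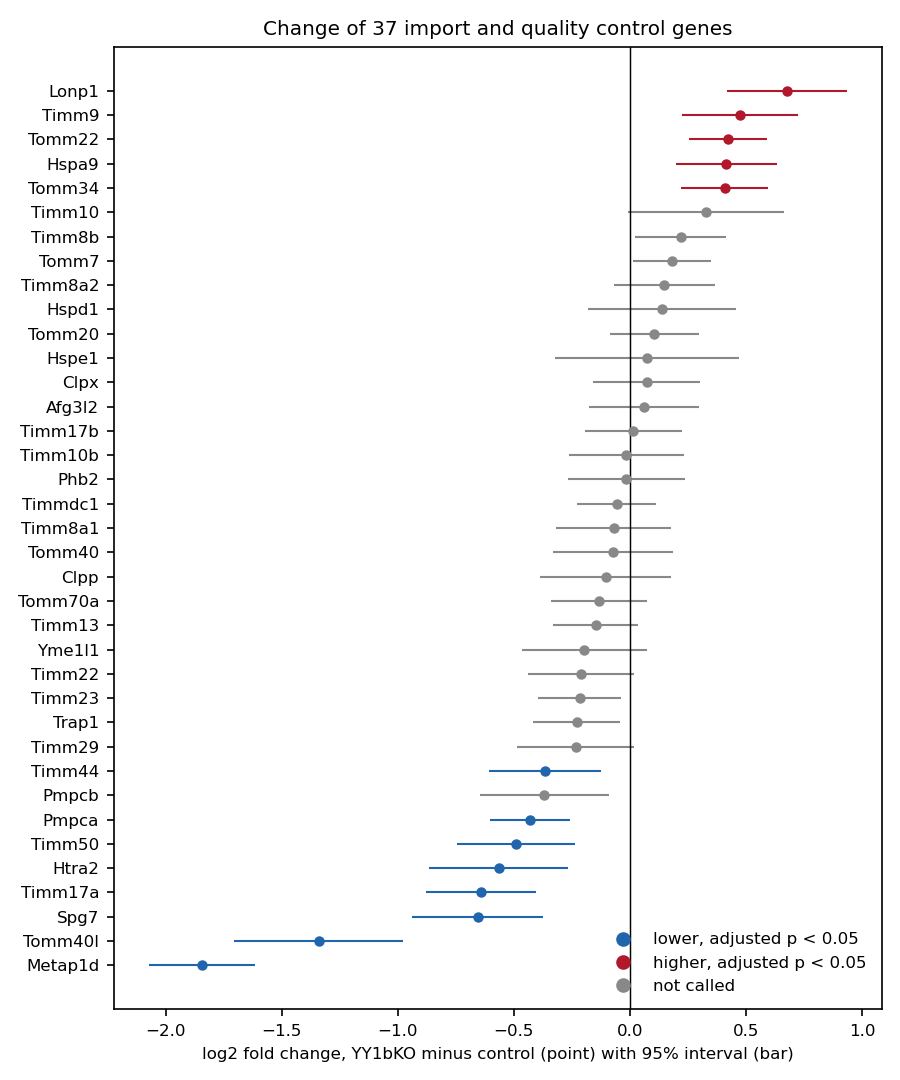
The log2 fold change of each of the 37 genes, YY1bKO minus control, is shown as a point with its 95% interval from limma, ordered by value; n = 3 arrays per group. Blue genes were called lower, red genes higher and grey genes not called, and Metap1d (-1.84) and Tomm40l (-1.34) lie apart from the other genes at the low end.

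Of the 7 genes whose symbol starts with Tomm, 1 was lower and 2 were higher (42.9%, against 18.3% of all genes). They are grouped by name, and Tomm34 among them encodes a cytosolic protein. Tomm22 encodes the central receptor of the TOM complex, which receives precursors from the other receptors. Its values were 10.49, 10.42 and 10.50 in control and 10.87, 10.91 and 10.91 in YY1bKO arrays. All YY1bKO arrays were above all controls, by 0.42 ± 0.07 on the log2 scale (SE, n = 3 per group, limma adjusted p = 0.00977), or 1.34-fold. A second Tomm22 probe set was called higher as well (0.35, limma adjusted p = 0.0337).

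Tomm34 encodes a cytosolic cochaperone that helps keep precursors unfolded before import. It read 8.38, 8.36 and 8.52 in control and 8.78, 8.84 and 8.85 in YY1bKO arrays, 1.33-fold higher with no overlap (0.41 ± 0.08, SE, limma adjusted p = 0.0164). Tomm34 missed the threshold when control replicate 1 was dropped (adjusted p = 0.0604) and when any YY1bKO array was (0.0536 to 0.0679).

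Tomm40l encodes a paralogue of Tomm40, the protein that lines the import pore. Control arrays gave 9.38, 9.27 and 9.20 and YY1bKO arrays 8.01, 8.20 and 7.62. The fall was 2.53-fold (-1.34 ± 0.15, SE, limma adjusted p = 0.00328), with YY1bKO replicate 3 the lowest. Tomm40 itself was at 8.07, 7.78 and 8.09 in control and 7.81, 7.98 and 7.93 in YY1bKO arrays, so the groups overlapped (-0.07, 95% interval -0.33 to 0.18). Other pore and receptor genes were not called: Tomm20, a receptor for presequences, gave 0.10 and Tomm70a, a receptor for carrier proteins, gave -0.13 with intervals of -0.09 to 0.30 and -0.34 to 0.07. The 4 probe sets of Tomm70a ran from -0.23 to 0.34, and none was called. Tomm7, a small subunit of the complex, gave 0.18 in its brightest probe set (limma adjusted p = 0.131), and another of its 4 probe sets was called higher, with 0.27 (limma adjusted p = 0.0469 over probe sets).

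Of 14 TIM genes, 3 were lower and 1 was higher, which is 28.6%. Of all genes 18.3% were called, and 30.3% in the fit of only genes above the median intensity. The presequence translocase of the inner membrane, TIM23, which passes precursors with a cleavable leader into the matrix, held the 3 that were lower. Timm17a encodes a channel-forming subunit. Its level was 11.36, 11.31 and 11.32 in control and 10.75, 10.80 and 10.50 in YY1bKO arrays, a fall of 1.56-fold with no overlap (-0.64 ± 0.10, SE, limma adjusted p = 0.00804). The paralogue Timm17b, on the X chromosome, was at 8.53, 8.73 and 8.56 in control and 8.69, 8.63 and 8.56 in YY1bKO arrays, with overlap and a difference of 0.01 (95% interval -0.19 to 0.22).

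Timm50 encodes the receptor of the TIM23 complex that takes over precursors from the outer membrane. It read 9.73, 9.46 and 9.67 in control and 9.00, 9.12 and 9.26 in YY1bKO arrays (-0.49 ± 0.11, SE, 1.40-fold lower, limma adjusted p = 0.0235). YY1bKO values were all below the controls, the nearest being control replicate 2 and YY1bKO replicate 3. Timm50 was no longer called when control replicate 1 or 3 was dropped (adjusted p = 0.0798 and 0.0644), or YY1bKO replicate 1 or 2 (0.0864 and 0.0838).

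Timm44 encodes the matrix-side anchor that holds the import motor at the channel. Its values were 11.18, 11.05 and 11.20 in control and 10.69, 10.95 and 10.69 in YY1bKO arrays. The groups did not overlap, YY1bKO replicate 2 lying nearest to the controls, and the difference was near the threshold (-0.37 ± 0.10, SE, limma adjusted p = 0.0492). Timm44 did not pass when control replicate 1 or 3 was dropped (adjusted p = 0.136 and 0.115), or YY1bKO replicate 1 or 3 (0.155 and 0.157), nor after quantile normalization (0.0547). Of its 3 probe sets, 1 was called lower when each probe set was tested by itself (-0.37, limma adjusted p = 0.0353), and the brightest was not (0.0536).

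Hspa9 encodes mortalin, the heat shock protein of the import motor that Timm44 tethers. In contrast to the anchor it was higher, with 12.22, 12.05 and 12.30 in control and 12.55, 12.64 and 12.64 in YY1bKO arrays. No values overlapped (0.41 ± 0.09, SE, 1.33-fold, limma adjusted p = 0.0245), and a second bright probe set gave 0.40. Dropping control replicate 1 (adjusted p = 0.0682) or any YY1bKO array (0.0670 to 0.0916) left Hspa9 not called. Timm23, the channel protein itself, was at 11.89, 11.93 and 11.93 in control and 11.65, 11.78 and 11.68 in YY1bKO arrays. These groups also did not overlap, but the difference was not called (-0.22, limma adjusted p = 0.0945). With the offset Timm23 was called (adjusted p = 0.0420).

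**Figure D2:**
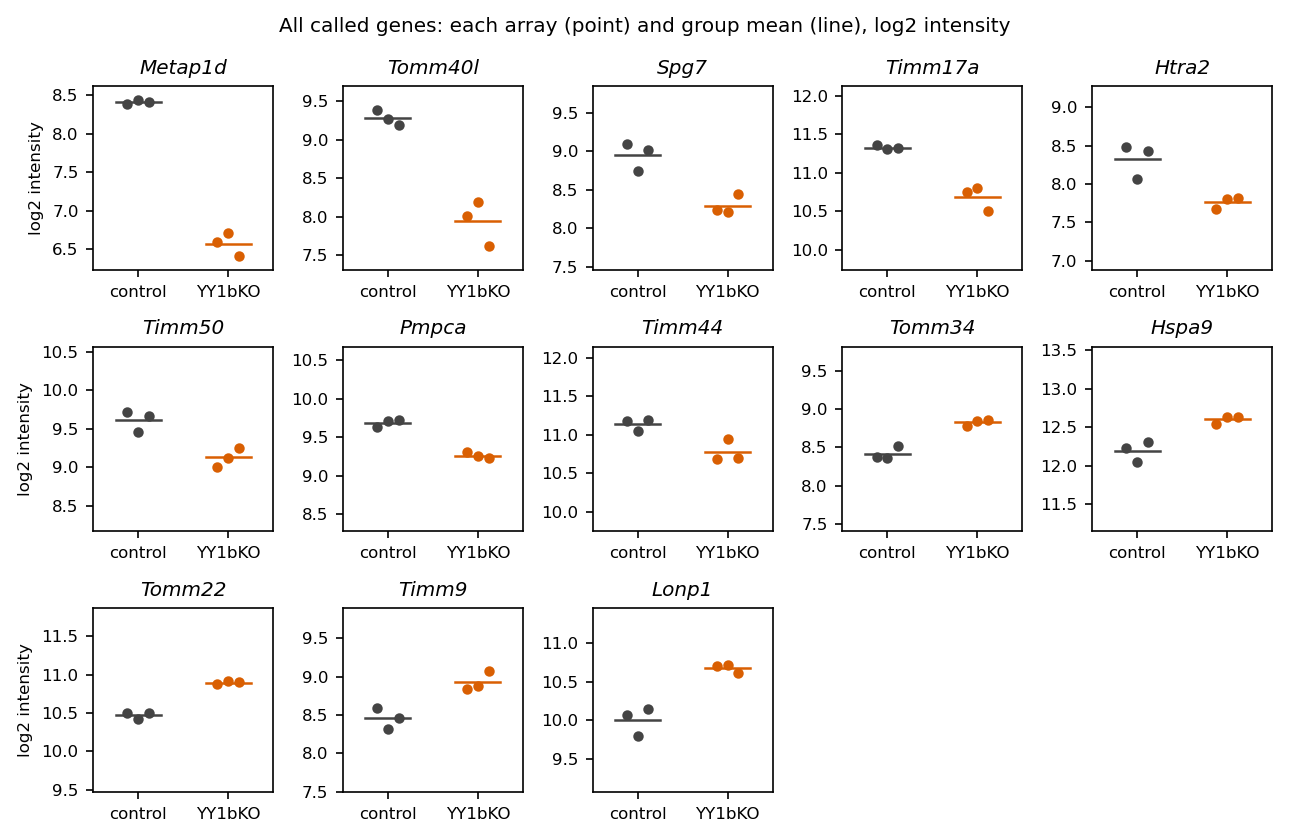
Log2 intensity in each of the 3 control (grey) and 3 YY1bKO (orange) arrays for the 13 called genes, with the group mean as a line; every panel spans the same range of log2 units and genes run from the largest fall to the largest rise. In no panel do the groups overlap, and Timm44 and Timm50 have the narrowest gaps between nearest values.

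Genes of the carrier pathway, which inserts proteins without a leader into the inner membrane, had 1 called gene. The small Tim proteins are chaperones of the intermembrane space that escort such proteins. Timm9, which works in a ring with Timm10, was higher, with 8.59, 8.32 and 8.46 in control and 8.84, 8.88 and 9.07 in YY1bKO arrays (0.47 ± 0.10, SE, 1.39-fold, limma adjusted p = 0.0252). Both of its probe sets were called higher, the dimmer with 0.66. Timm9 missed the threshold if control replicate 3 (adjusted p = 0.0609) or any YY1bKO array (0.0618 to 0.0882) was left out.

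Its partner Timm10 was at 10.88, 10.79 and 11.01 in control and 10.93, 11.35 and 11.39 in YY1bKO arrays, where YY1bKO replicate 1 lay within the control range (0.33, 95% interval -0.01 to 0.67, limma adjusted p = 0.164). Timm10b, a related subunit at the inner membrane, gave -0.02 in its brightest probe set. Its 4 probe sets disagreed: the dimmest, with a control mean of 6.16 and a YY1bKO mean of 6.76, was called higher (0.60, limma adjusted p = 0.00688 over probe sets) and the other 3 were not called (-0.16 to -0.01). No source used here tells which transcript the dimmest reads.

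The remaining small Tim genes were not called. Timm8b gave 0.22, Timm8a1 gave -0.07 and Timm13, which pairs with the Tim8 proteins, gave -0.15. Timm8a2, a paralogue of Timm8a1, had log2 intensities of 2.74 to 3.05, the sole one of the 37 genes below the median of all probe sets (6.49), so its transcript was not measured above the low end of the scale. In the carrier translocase, Timm22 gave -0.21 and its subunit gene Timm29 gave -0.23, and neither was called, although in both genes the YY1bKO values lay below all controls. With the muscle score as a covariate Timm29 was called lower (-0.30, limma adjusted p = 0.0226). Timmdc1, which shares the Timm prefix but encodes an assembly factor of respiratory complex I, gave -0.06.

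Of the 3 genes for peptidases that trim the ends of proteins, 2 were lower (66.7%, against 18.3% of all genes). Metap1d encodes a methionine aminopeptidase of mitochondria, which removes the first methionine of proteins made there. It does not cut off the leader of precursors, and it showed the largest change of the 37 genes. Its level was 8.39, 8.44 and 8.42 in control and 6.59, 6.71 and 6.41 in YY1bKO arrays. The fall was 3.59-fold (-1.84 ± 0.10, SE, limma adjusted p = 0.000425), far outside the spread of either group. The second Metap1d probe set was dim, at 3.35 in control, and gave -0.17, so the mean over both was -1.01 (limma adjusted p = 0.000806).

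Pmpca and Pmpcb encode the subunits of the processing peptidase that cuts off the leader. Pmpca read 9.64, 9.71 and 9.72 in control and 9.30, 9.25 and 9.22 in YY1bKO arrays, a fall of 0.43 ± 0.07 on the log2 scale (SE, 1.35-fold, limma adjusted p = 0.00991). Its other probe set fell further, by 0.93, so that the mean over both was -0.68. Pmpcb, the catalytic subunit, was at 11.81, 11.54 and 11.96 in control and 11.38, 11.38 and 11.44 in YY1bKO arrays. These did not overlap and the size was like that of Pmpca (-0.37 ± 0.12, SE), but Pmpcb was not called (limma adjusted p = 0.0741). Without control replicate 2, the lowest control, it was called (-0.48, adjusted p = 0.00886), as it was with the muscle score (-0.29, 0.0279) and with array weights (-0.43, 0.0122).

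Of 7 protease genes, 2 were lower and 1 was higher (42.9%, against 18.3% of all genes). Lonp1 encodes the Lon protease, which degrades oxidised and unfolded proteins in the matrix. It was higher, at 10.07, 9.80 and 10.15 in control and 10.70, 10.72 and 10.62 in YY1bKO arrays (0.68 ± 0.11, SE, 1.60-fold, limma adjusted p = 0.0088), and was called under all 16 alternative fits.

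Spg7 encodes paraplegin, a subunit of the m-AAA protease of the inner membrane. It read 9.09, 8.75 and 9.01 in control and 8.24, 8.21 and 8.44 in YY1bKO arrays (-0.66 ± 0.12, SE, 1.58-fold lower, limma adjusted p = 0.0131), and it missed the threshold with YY1bKO replicate 1 or 2 dropped (adjusted p = 0.0571 and 0.0589). Afg3l2, its partner in that protease, was at 10.20, 9.97 and 10.26 in control and 10.16, 10.27 and 10.17 in YY1bKO arrays, with overlap (0.06, 95% interval -0.18 to 0.30).

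Htra2 encodes a serine protease of the intermembrane space. It was lower, at 8.48, 8.07 and 8.44 in control and 7.67, 7.80 and 7.81 in YY1bKO arrays (-0.57 ± 0.13, SE, 1.48-fold, limma adjusted p = 0.0249). Control replicate 2 was the lowest control and still above all YY1bKO arrays, and a second probe set gave -0.72. Both probe sets are of the Affymetrix kind that can read transcripts of more than 1 gene. The same holds for the brightest probe sets of Afg3l2, Hspe1, Phb2, Timm17b, Timm8a2, Tomm7 and Tomm70a. It also holds for the second Tomm22 probe set and for the Timm44 probe set that was called by itself. Htra2 was still called with control replicate 2 dropped, and it was not called with any other array dropped (adjusted p = 0.0683 to 0.0931).

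The other proteases were not called. Clpp and Clpx, the peptidase and the unfoldase of the ClpXP protease, gave -0.10 and 0.07, and Yme1l1, the i-AAA protease facing the intermembrane space, gave -0.20. Phb2, which with Phb forms a ring-shaped scaffold around the m-AAA protease, gave -0.02, and its 3 probe sets lay between -0.02 and 0.11.

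Of the 4 chaperone genes only Hspa9, described above, was called (25%, against 18.3% of all genes). Hspd1, the chaperonin, was at 12.81, 12.40 and 12.82 in control and 12.74, 12.92 and 12.77 in YY1bKO arrays, and Hspe1, its lid, at 12.05, 11.52 and 11.92 in control and 11.68, 12.07 and 11.97 in YY1bKO arrays. Both overlapped between groups, with differences of 0.14 (95% interval -0.18 to 0.46) and 0.07 (-0.32 to 0.47), and in both genes control replicate 2 was the lowest of the 6 arrays and YY1bKO replicate 2 the highest. These genes are neighbours on chromosome 1 that run in opposite directions, with Hspd1 starts 216 and 95 bases from that of Hspe1 in the RefSeq windows, and the GABP palindrome shown above lies in the windows of both. Trap1, a chaperone of the Hsp90 family, was at 10.32, 10.19 and 10.35 in control and 10.02, 10.06 and 10.09 in YY1bKO arrays, without overlap but not called (-0.23, limma adjusted p = 0.0931). It was called without control replicate 2 (-0.28, adjusted p = 0.0395), with array weights (0.0321) and with the offset (0.0487).

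Across the 24 genes not called, log2 fold changes ran from -0.37 to 0.33. In 22 of them the 95% interval lay within 1.5-fold in both directions, so larger changes of these transcripts lay outside the intervals. An unadjusted p under 0.05 was found in 5 (Pmpcb, Trap1, Timm23, Timm8b and Tomm7). In 9 of the 24 the groups did not overlap. The 38.5% for all genes includes the called ones, so it is no like share for these 24, and the share among all genes not called was not computed. Control replicate 2 gave the lowest control value in 25 of the 37 genes and the highest in 6. That array also had the highest muscle markers, and control values spread more widely than YY1bKO values in 26 of the 37 genes.

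Fold changes within pairs of partners or paralogues were compared in 10 pairs, using for each array the difference between the 2 genes so that effects shared by an array drop out. Levels of different probe sets were not compared. The groups did not overlap in this difference for 4 pairs. It was 1.27 on the log2 scale for Tomm40 and Tomm40l, 0.72 for Afg3l2 and Spg7, -0.66 for Timm17a and Timm17b, and -0.29 for Timm8a1 and Timm8b, each the fold change of the first gene minus that of the second. The two-sided exact permutation p was 0.1 for each, which 3 arrays a group cannot go below, and 0.25 after Benjamini-Hochberg adjustment over the 10 pairs, so no pair could pass 0.05. For Pmpca and Pmpcb, Hspd1 and Hspe1, and Timm22 and Timm23 the same quantity was -0.06, 0.06 and 0.01, and for Timm9 and Timm10, Timm10 and Timm10b, and Clpp and Clpx 0.14, 0.34 and -0.18, all with exact p of 0.3 to 0.9.

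**Figure D3:**
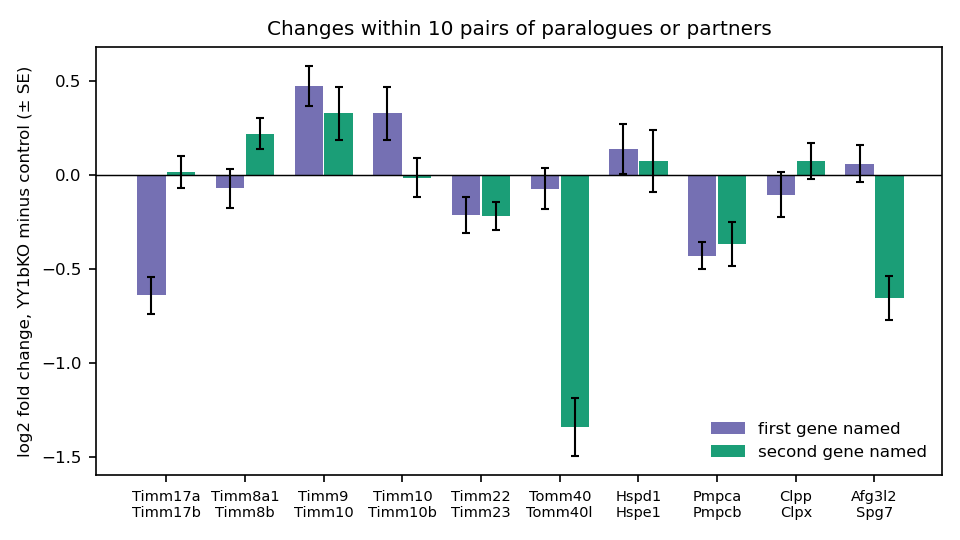
Bars give the log2 fold change (YY1bKO minus control, n = 3 arrays per group) of the first and second gene of each of the 10 pairs, with the limma SE as error bars. Tomm40l, Timm17a and Spg7 have bars of -1.34, -0.64 and -0.66 while their partners lie between -0.07 and 0.06.

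Probe sets of the same gene were also set side by side. Among the 73 probe sets, 10 were called lower and 10 higher when each was tested by itself, against 7.29% lower and 8.67% higher of all 20380 probe sets that name 1 gene. Of the 7 called genes with several probe sets, 4 (Tomm22, Pmpca, Htra2 and Timm9) had all of them called the same way, and in Metap1d, Hspa9 and Timm44 at least 1 was not called. Tomm7 and Timm10b had a called probe set although the gene was not called by its brightest.

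**Figure D4:**
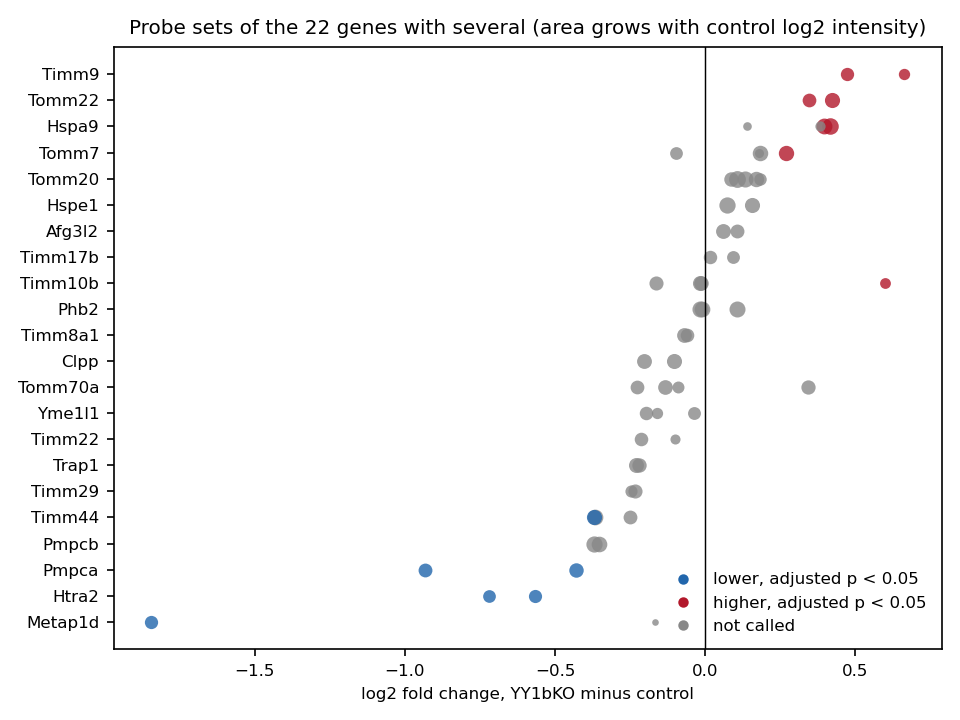
Each point is a probe set of 1 of the 22 genes with several, placed by its log2 fold change (YY1bKO minus control); larger points have a higher control intensity, and colours mark the limma call over all probe sets. Probe sets of most genes lie close together, while those of Metap1d, Pmpca, Timm10b and Tomm70a are spread apart.

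Other genes of the pathway were taken from 3 lists. Among 23 measured genes of other import and insertion factors, 3 were higher and 0 lower (13.0%, median 0.05). Of all genes 18.3% were called, and 30.3% in the fit of only genes above the median intensity. Mtx1, a metaxin of the outer membrane machinery that inserts barrel proteins, was 2.07-fold higher (10.33 ± 0.10 in control, 11.38 ± 0.07 in YY1bKO, SD, n = 3, limma adjusted p = 0.00118). Dnajc11 and Gfer, a sulfhydryl oxidase of the intermembrane space, were higher by 0.39 and 0.28 (limma adjusted p = 0.0454 and 0.0480), and neither was called whichever array was left out (adjusted p = 0.0514 to 0.148 and 0.0562 to 0.153). Gfer was at 0.11 in the mean over its probe sets. Named for their roles, Samm50, the barrel-inserting protein itself, and the motor genes Pam16 and Grpel1 were not called, with -0.10, -0.05 and -0.22.

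Among 20 measured genes of other mitochondrial proteases, membrane scaffolds and quality control, 5 were lower and 0 higher (25.0%, median -0.14). The share of all genes called was 18.3%, and 30.3% in the fit of only genes above the median intensity. Clpb, a disaggregase of mitochondria, was 3.27-fold lower (9.58 ± 0.20 in control, 7.87 ± 0.15 in YY1bKO, SD, n = 3, limma adjusted p = 0.00099), and Hint2, a nucleotide hydrolase of mitochondria, 2.09-fold lower (limma adjusted p = 0.00262). Apool, a component of the cristae-organising complex, fell by 0.81 and Pink1, a kinase that marks damaged mitochondria for removal, by 0.80. The Pink1 call (limma adjusted p = 0.0191) did not hold when any of the 3 YY1bKO arrays was left out (adjusted p = 0.0662 to 0.0753). Parl, a rhomboid protease of the inner membrane that cuts Pink1, fell by 0.30, close to the threshold (limma adjusted p = 0.0495).

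The list of mitochondrial stress signalling had 7 genes higher and 1 lower of 22 (36.4%, against 18.3% of all genes, median 0.18). In this list 16 genes had a positive and 6 a negative log2 fold change. Of its genes that were not called, Phgdh and Shmt2 gave -0.47 and -0.15. Asns, Atf5 and Chac1, also not called, gave 0.20, 0.27 and 0.44. Mthfd2, Psat1 and Fgf21, all known to be induced when mitochondria are stressed, were 1.59-fold, 1.95-fold and 3.07-fold higher (limma adjusted p = 0.00619, 0.00974 and 0.00901), the last from a dim level. Eif2ak2, a stress kinase that interferon also induces, was higher by 0.59 (limma adjusted p = 0.0171), and it was not called when control replicate 1 or any YY1bKO array was left out (adjusted p = 0.0531 to 0.0657), nor in the mean over its probe sets (0.35, 0.0913). The lower gene, named after its values were seen, was Dele1, which relays mitochondrial stress to the cytosol (-0.40, limma adjusted p = 0.0263). The transcript of Atf4, the factor at the centre of this response, gave -0.04 and was not called. Trib3, Ddit3 and Cebpg, also named after their values were seen, were higher by 1.84, 1.05 and 0.50 (limma adjusted p = 0.0222, 0.0264 and 0.0344).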

How the data were processed

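Per the labels' protocols, total RNA of brown adipose tissue was extracted with Trizol and biotin-labelled cRNA was made from 6 ug for Affymetrix arrays. The deposited table holds an intensity per probe set, and per the submitters' processing notes RMA was used by the authors; the sources used here give neither its version nor its options. The intensities are linear (4.91 to 21219) and were transformed to log2 here without an offset. RMA equalises the arrays and pulls in changes of dim probe sets. Of 22690 probe sets, 20380 name 1 gene in the platform annotation, and 691 with several, 1555 with none and 64 controls were left out. Each of 12393 genes was represented by its brightest probe set over the 6 arrays. Groups were compared with limma 3.58.1 in R 4.3.3 (lmFit, eBayes, group the sole term, two-sided, Benjamini-Hochberg over all genes, called under 0.05), tested on simulated data first. Every adjusted p of a gene is limma's. Named were called genes, pair members and genes whose probe sets disagree, and up to 4 called genes per other list. Some further genes of those lists were named for their roles or after their values were seen. Members and lists were chosen with earlier results of these data known. Nothing in the labels says whether replicates were separate animals, so each p-value reflects the spread among these arrays alone, and that spread may be technical. The number of arrays limits precision.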

Additional observations from a re-analysis of the deposited data

How the results depend on the processing

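Each of the 13 called genes kept its direction under all 16 alternative fits, and Metap1d, Tomm40l, Timm17a, Lonp1, Pmpca and Tomm22 were called under each of them. The counts of lower and higher genes were 4 and 1 with an added fold of at least 1.5 and 5 and 2 with the replicate number as a block. The block is not taken as a pairing, since the deviations of same-numbered arrays from their group means correlated at -0.25, 0.11 and 0.26; Tomm34, Timm50, Hspa9, Htra2, Timm9 and Timm44 lost their calls with it (adjusted p = 0.0538, 0.0607, 0.0677, 0.0628, 0.0630 and 0.125), where fewer degrees of freedom remain. Leaving out an array gave 4 to 10 lower and 2 to 5 higher genes. Over all genes 25.5% were called when arrays were weighted and 29.5% when the muscle score was a covariate, against 18.3% in the main comparison.

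Differences near 0 changed sign, and none of them was called. With the mean over probe sets, Timm10b gave 0.10 and Phb2 0.026. After quantile normalization, they gave 0.016 and 0.036. With the muscle score as a covariate, Timm10b gave 0.0467, Phb2 0.0466 and Timm17b -0.028. With array weights, Hspe1 gave -0.047 and the Pmpca minus Pmpcb difference was 0.013. When an array was left out, the range was -0.0016 to 0.21 for Hspd1, -0.028 to 0.12 for Afg3l2, -0.080 to 0.19 for Hspe1, -0.023 to 0.077 for Timm17b, -0.11 to 0.056 for Timm10b and -0.11 to 0.061 for Phb2. It was -0.053 to 0.051 for Timm22 minus Timm23, -0.016 to 0.12 for Hspd1 minus Hspe1 and -0.14 to 0.062 for Pmpca minus Pmpcb. Dim probe sets, such as those of Timm8a2, Metap1d and Timm10b, limit what their values can show.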
